A study of Homo sapiens with 23 samples.

Results

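The glutathione S-transferases described here were 10 genes, GSTA1, GSTA2, GSTA4, GSTP1, GSTK1, GSTO1, GSTZ1, MGST1, MGST2 and MGST3, chosen by gene symbol from the 60564 genes listed for every library. All 10 were present under a single identifier and all 10 passed the filter on low values in both cell lines. The libraries were made for mRNA sequencing from Caco-2, a human intestinal epithelial tumour line, and HepG2, a human liver tumour line. Both lines were grown in a microfluidic chip with a chamber for each line. Cells of each line were mono-cultured or co-cultured, with the other line then in the linked chamber sharing the circulating medium, and received either 1 mM free fatty acids (FFAs, palmitic and oleic acid in a ratio of 1 to 2) for 1 day or no FFAs. Each of the 8 groups held 3 libraries except the co-cultured Caco-2 controls, which held 2, giving 11 Caco-2 and 12 HepG2 libraries.

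Glutathione S-transferases join the tripeptide glutathione to electrophilic compounds, among them drugs, carcinogens and the aldehydes formed when lipids are oxidised, and the conjugates are then pumped out of the cell. The cytosolic enzymes fall into classes, of which alpha (GSTA genes) is abundant in liver, kidney and small intestine, and pi (GSTP1) is abundant in many epithelia and low in normal hepatocytes. GSTK1 is found in mitochondria and peroxisomes, and the MGST enzymes are unrelated membrane proteins of the endoplasmic reticulum and the outer mitochondrial membrane.

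Values are TPM, the share of each gene's transcripts among all transcripts of a library after scaling for transcript length, so levels of different genes may be set side by side. Tests were made on log2(TPM + 1) with limma, and a gene is called where the Benjamini-Hochberg adjusted p over all genes tested was under 0.05. In bulk libraries, fewer expressing cells and less RNA per cell cannot be told apart. The labels number the libraries of a group without saying that they came from separate cultures, and the study's methods speak of independent experiments without tying library numbers to them. The p-values therefore measure the spread between these libraries, part of which may be technical.

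The lines were checked with 12 markers each. Every library of the labelled line was above every library of the other line for 9 of the 12 Caco-2 markers and 11 of the 12 HepG2 markers, although the Caco-2 markers CDX1, GPA33 and KRT20 were near 0 in Caco-2 as well, and Caco-2 held hepatocyte transcripts such as ALB at 321 to 769 TPM. The number of genes above 0 TPM ranged from 19259 to 23689, and in all 7 groups with a library numbered 3 that library had the most. SPP1 and TF, 2 of the 12 HepG2 markers, were high in 2 co-cultured Caco-2 libraries, while the sum of the 12 markers was not set apart there, at 7418 and 8434 TPM against 5549 to 8546 TPM in the other 9 Caco-2 libraries. That sum holds transcripts found throughout Caco-2, such as APOA2 at 1858 to 2706 TPM, so it could not show a small addition. SPP1, at 413 TPM or more in HepG2, stood at 19.6 TPM in library 1 of the co-cultured Caco-2 controls and at 39.6 TPM in library 1 of the co-cultured Caco-2 with FFAs, against 0.170 to 1.04 TPM in the other 9 Caco-2 libraries. TF was at 42.8 and 133 TPM in the same 2 libraries, against 4.17 to 10.2 TPM in the other 9. HPD, not a marker and picked after its values were seen, was at 1.27 and 3.76 TPM, against 0 to 0.280 TPM.

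The promoters of the 3 genes with the largest differences between the lines are shown, since GSTP1 set the lines furthest apart and GSTA1 and GSTA2 are neighbouring copies whose reads are hard to tell apart. They are the 250 bases before the start site in RefSeq on GRCh38.p14, read in the direction of the gene: GSTP1 at chr11:67583562-67583811 on the plus strand, GSTA1 at chr6:52803817-52804066 and GSTA2 at chr6:52763476-52763725, both on the minus strand. Capitals mark matches to 4 motifs, the antioxidant response element core TGACNNNGC, the GC box GGGCGG and the HNF1 half-site GTTAAT, each searched on both strands, and the TATA box TATAAA, searched on the sense strand.
GSTP1: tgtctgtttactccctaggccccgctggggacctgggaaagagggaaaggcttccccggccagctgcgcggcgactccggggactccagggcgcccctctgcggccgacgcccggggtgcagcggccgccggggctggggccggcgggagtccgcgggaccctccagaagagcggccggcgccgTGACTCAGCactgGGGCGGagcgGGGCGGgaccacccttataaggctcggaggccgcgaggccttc
GSTA1: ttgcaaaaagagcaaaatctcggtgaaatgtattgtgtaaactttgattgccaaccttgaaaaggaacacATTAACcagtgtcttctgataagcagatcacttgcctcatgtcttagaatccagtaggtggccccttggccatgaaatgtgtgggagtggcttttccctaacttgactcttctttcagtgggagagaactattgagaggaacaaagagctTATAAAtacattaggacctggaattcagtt
GSTA2: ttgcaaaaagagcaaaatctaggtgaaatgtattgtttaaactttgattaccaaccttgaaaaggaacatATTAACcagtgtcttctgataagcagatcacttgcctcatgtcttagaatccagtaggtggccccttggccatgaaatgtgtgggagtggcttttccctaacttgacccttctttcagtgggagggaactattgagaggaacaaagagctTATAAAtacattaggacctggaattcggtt

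The GSTP1 sequence holds 1 antioxidant response element core 66 bases before the start site and 2 GC boxes 53 and 43 bases before it. With the 50 bases after the start site included, its window has 36 CG dinucleotides against a median of 14 over 35116 RefSeq promoters of the same length, and 87.3% of promoters have fewer. The GSTA1 and GSTA2 windows have 4 and 1 CG dinucleotides. Both hold the reverse complement of the HNF1 half-site, ATTAAC, 180 bases before the start site and a TATA box 30 bases before it. The printed GSTA1 and GSTA2 sequences are identical at 243 of 250 positions (97.2%) and differ, counting from 1 at the left end with the GSTA1 base named first, by C21A, G37T, G50A, C70T, T178C, A195G and A247G. None of the marked matches overlap. Among all promoters of this length, 13.3% hold the antioxidant response element core, 45.0% the GC box, 6.88% the HNF1 half-site and 7.33% the TATA box, so each match is a description of the letters only.

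**Figure D1:**
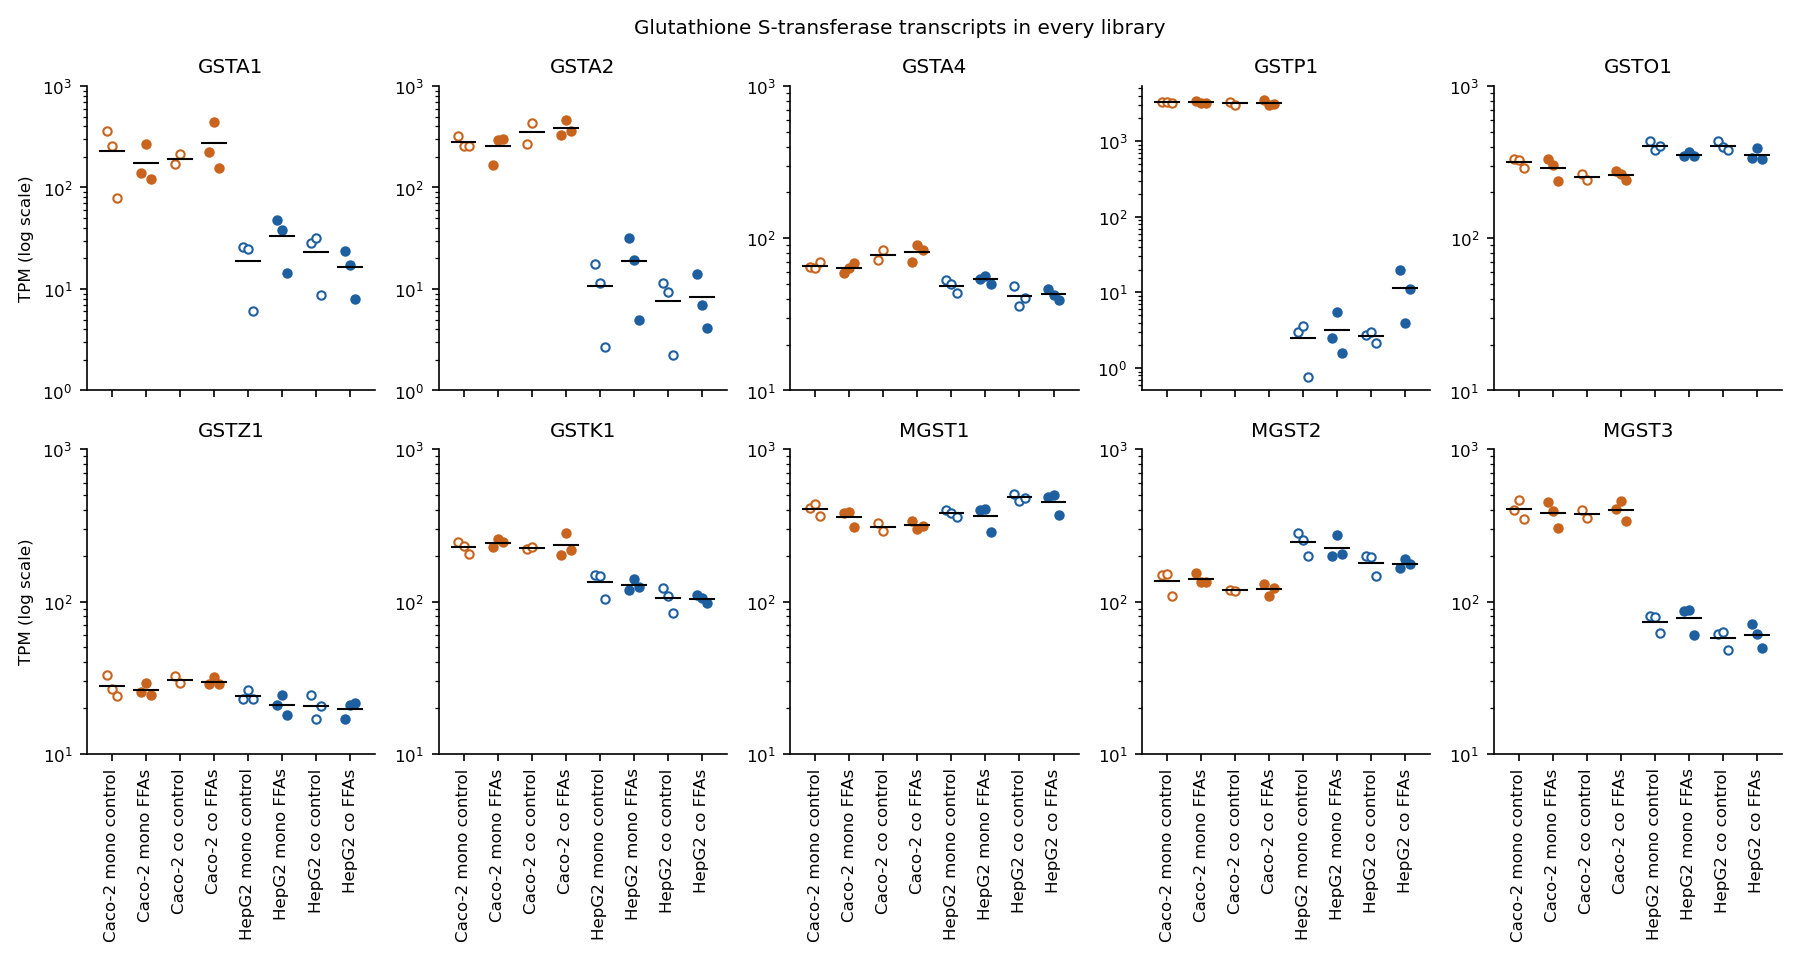
Level of each glutathione S-transferase gene in TPM on a log axis in the 23 libraries, by group (Caco-2 in orange, HepG2 in blue, controls open, FFAs filled, black line for the group mean; the GSTP1, GSTA1 and GSTA2 panels have other axis ranges than the rest). GSTP1 lies at 3008 TPM or more in every Caco-2 library and at 19.6 TPM or less in every HepG2 library, while MGST1 lies between 288 and 512 TPM in both lines.

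The family was composed differently in Caco-2 and HepG2. The 10 transcripts summed to 4930.2 to 5597 TPM in the Caco-2 libraries (median 5356) and to 1113 to 1473 TPM in the HepG2 libraries (median 1311). GSTP1 alone made up 55.2% to 65.0% of that sum in Caco-2 and 0.0639% to 1.52% in HepG2. In HepG2 the sum was led by MGST1 (25.8% to 39.6%), GSTO1 (25.9% to 33.4%) and MGST2 (12.1% to 19.3%). The group means of the sum lay between 5099.7 TPM (co-cultured controls) and 5376 TPM (mono-cultured controls) in Caco-2, and between 1249 TPM (co-culture with FFAs) and 1343 TPM (mono-cultured controls) in HepG2.

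Between mono-cultured controls of the lines, 6 of the 10 genes were higher in Caco-2 (GSTP1, GSTA2, GSTA1, MGST3, GSTK1 and GSTA4), 2 were lower (MGST2 and GSTO1), and 2 were not called (GSTZ1 and MGST1). The lines differ across most of the transcriptome. Of the 16495 genes tested, 62.4% were called, 39.0% higher and 23.4% lower in Caco-2, so 8 of 10 is not far from the background. For the 6 genes called higher, every Caco-2 library also exceeded every HepG2 library, which held for 28.6% of all genes. TPM place the median gene 0.20 log2 units higher in Caco-2. That median was 0.04 after median-of-ratios scaling and 0.003 after quantile normalization, which turned the split of 6429 genes higher and 3857 lower into 5316 and 4755, and 5185 and 5002, and under both the GSTA4 call ended.

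**Figure D2:**
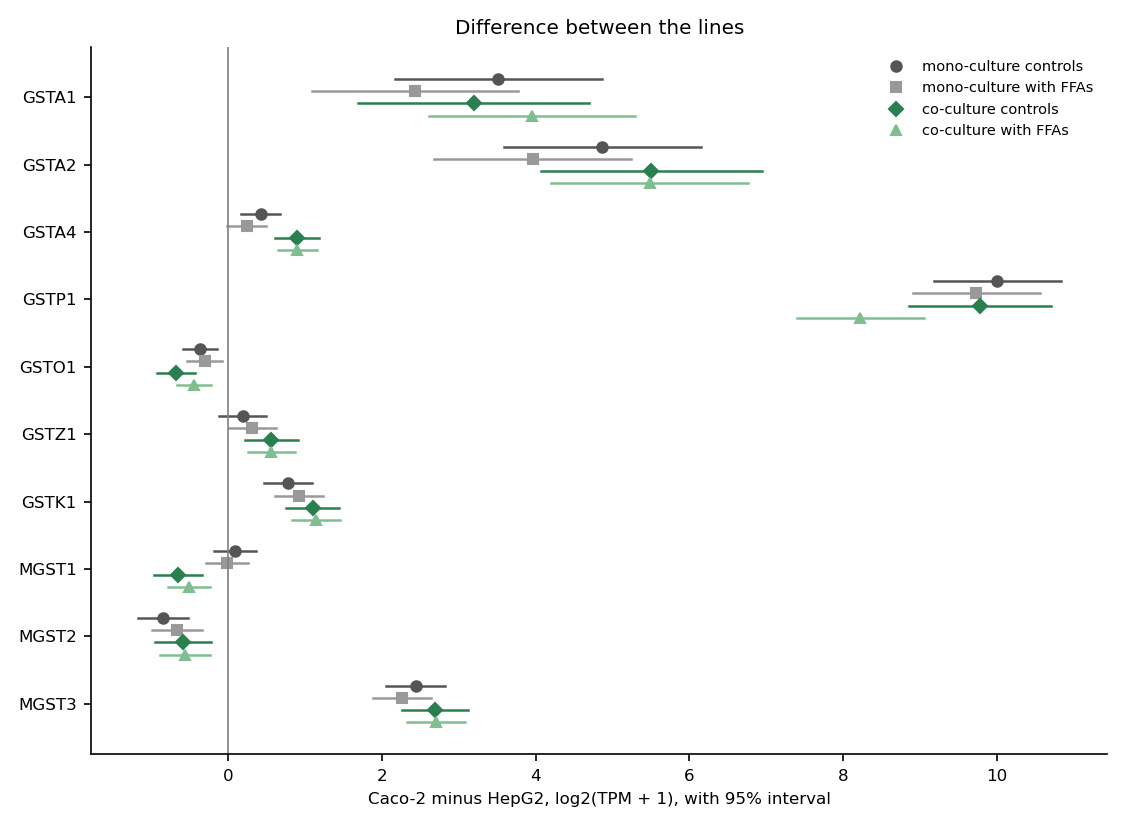
Caco-2 minus HepG2 difference in log2(TPM + 1) for each gene in the 4 conditions, with the 95% interval of the limma fit. GSTP1 lies between 8.22 and 10.00, and MGST1 lies near 0 in both mono-cultures and at -0.65 and -0.51 in the co-cultures.

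GSTP1 (ENSG00000084207), the pi-class enzyme, lies on chromosome 11 at 67583742-67586656, plus strand, with 7 exons in its canonical transcript. The Caco-2 libraries held 3287, 3346 and 3219.6 TPM in mono-cultured controls, 3425, 3239.7 and 3244 TPM in mono-culture with FFAs, 3304 and 3036 TPM in co-cultured controls, and 3522, 3008 and 3070.4 TPM in co-culture with FFAs. It ranked 12th of the 31100 genes above 0 by mean TPM in Caco-2, and its coefficient of variation over the 11 libraries, 4.93%, was the lowest of the 10 genes there. The HepG2 libraries held 3.02, 3.63 and 0.770 TPM in mono-cultured controls, 2.46, 5.54 and 1.60 TPM in mono-culture with FFAs, 2.77, 3.00 and 2.15 TPM in co-cultured controls, and 19.6, 3.97 and 11.0003 TPM in co-culture with FFAs. Mono-cultured controls averaged 3284 ± 63.1 TPM in Caco-2 and 2.47 ± 1.51 TPM in HepG2 (SD, n = 3 each), a difference of 10.00 log2 units (SE 0.39, limma adjusted p = 4.07e-14).

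Within HepG2, the GSTP1 levels of libraries 1 and 3 of the co-culture with FFAs stood above all other HepG2 libraries, while library 2 of that group fell inside their range. Against co-cultured controls the difference was 1.56 log2 units (SE 0.51) with an unadjusted p = 0.010 and an adjusted p = 1 over 14255 genes in limma, so it was not called. The values of 2 Caco-2 transcripts that were picked for having a pattern like that of GSTP1 over these libraries are set beside it, so their sharing its high libraries follows from the choice. CDH17, an intestinal cadherin at 354 to 480 TPM in Caco-2, was at 2.75, 0.580 and 1.79 TPM in HepG2 co-cultured with FFAs and at 0.050 to 0.760 TPM in the other 9 HepG2 libraries. LDHB, a lactate dehydrogenase subunit, was at 9.85, 4.50 and 7.76 TPM in that group and at 0.460 to 4.53 TPM in the others. PHGR1, an intestinal transcript picked after its values were seen, was at 1.63, 0 and 0.390 TPM there and listed at 0 in all 9 others. The summed level of the 12 Caco-2 markers in HepG2, relative to Caco-2, was 15.1% to 18.1% in co-culture with FFAs, 13.9% to 17.6% in co-cultured controls and 18.8% to 22.7% in mono-culture. That sum holds transcripts found throughout HepG2, such as VIL1 at 153 to 244 TPM and LGALS2 at 65.3 to 128 TPM. GPA33 was listed at 0 in all 3 libraries of the co-culture with FFAs, but was only at 0.390 to 2.47 TPM in Caco-2. Neither the sum nor GPA33 could therefore show a small part of Caco-2 RNA. CDX2, an intestinal transcription factor at 60.4 to 136 TPM in Caco-2, was at 0.320, 0.210 and 0.580 TPM in that group. These values lay inside the range of the other HepG2 libraries (0.020 to 0.730 TPM). With that spread CDX2 could not show a small part of Caco-2 RNA either. The GSTP1 level in that group was 0.121% to 0.598% of the Caco-2 level, against 0.0234% to 0.169% in the other HepG2 libraries. The part of Caco-2 RNA in these GSTP1 values was not tested.

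**Figure D3:**
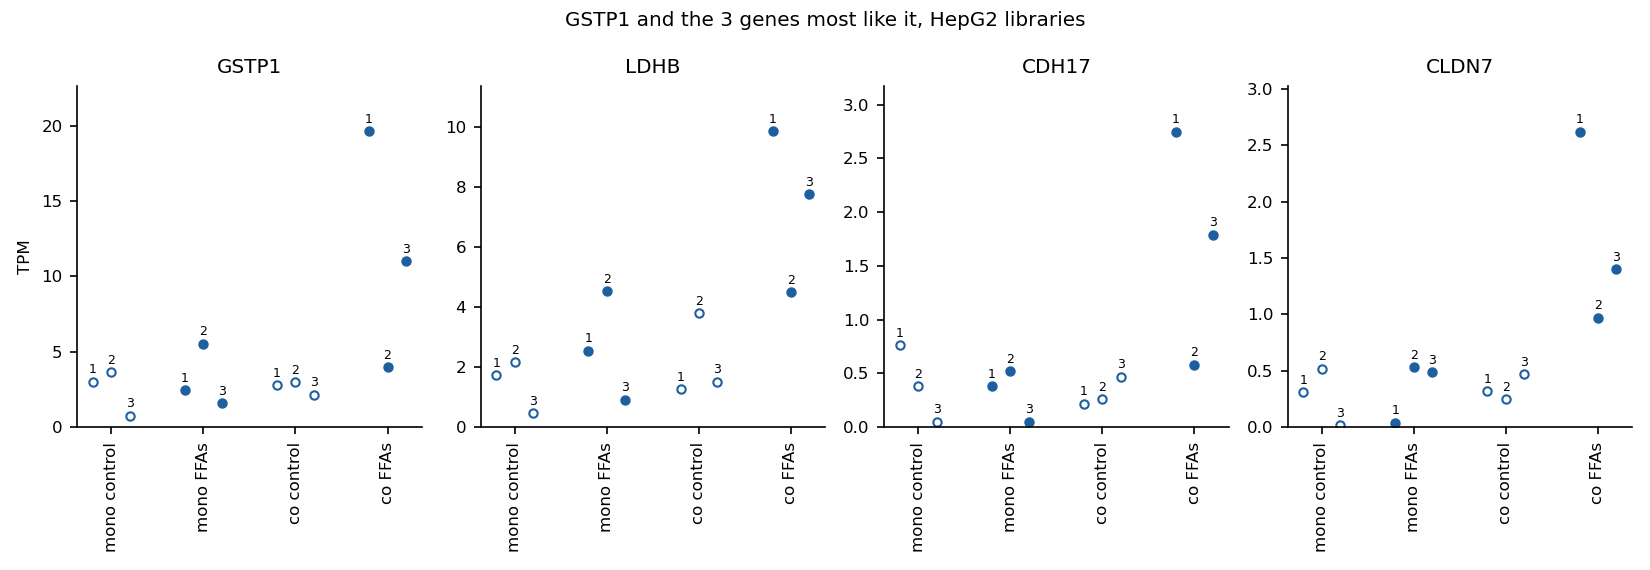
TPM of GSTP1 and of LDHB, CDH17 and CLDN7 in the 12 HepG2 libraries, by group, with the library number beside each point (controls open, FFAs filled). The last 3 genes were chosen as the most like GSTP1 over the 23 libraries, so a shared pattern follows from the choice. In all 4 panels libraries 1 and 3 of the co-culture with FFAs are the highest, GSTP1 at 19.6 and 11.0003 TPM.

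GSTA1 (ENSG00000243955; chromosome 6, 52791371-52803860, minus strand, 7 exons) and GSTA2 (ENSG00000244067; chromosome 6, 52750087-52763475, minus strand, 7 exons) encode alpha-class enzymes that also reduce lipid hydroperoxides. GSTA1 was at 357, 256 and 79.0 TPM in mono-cultured Caco-2 controls, 139, 268 and 121 TPM in mono-culture with FFAs, 172 and 214 TPM in co-cultured controls, and 222, 439 and 155 TPM in co-culture with FFAs. HepG2 levels were 25.8, 24.6 and 6.12 TPM in mono-cultured controls, 47.5, 38.2 and 14.3 TPM in mono-culture with FFAs, 28.2, 32.1 and 8.63 TPM in co-cultured controls, and 23.7, 17.4 and 8.05 TPM in co-culture with FFAs. All Caco-2 libraries lay above all HepG2 libraries, and in all 7 groups with a library numbered 3 that library was the lowest for GSTA1. The difference between mono-cultured controls was 3.52 log2 units (SE 0.64, limma adjusted p = 8.93e-05).

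GSTA2 was at 320.3, 256 and 258 TPM in mono-cultured Caco-2 controls, 167, 296 and 304 TPM in mono-culture with FFAs, 268 and 429 TPM in co-cultured controls, and 326, 465 and 359 TPM in co-culture with FFAs. HepG2 held 17.7, 11.5 and 2.69 TPM in mono-cultured controls, 32.0, 19.1 and 5.00 TPM in mono-culture with FFAs, 11.4, 9.40 and 2.25 TPM in co-cultured controls, and 13.9, 6.94 and 4.14 TPM in co-culture with FFAs. Library 3 was again the lowest of each HepG2 group but not of the Caco-2 groups. The lines differed by 4.87 log2 units in mono-cultured controls (SE 0.61, limma adjusted p = 1.06e-06). In the order of the group means within a line, every group overlapped the next for both genes.

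The ratio of GSTA1 to GSTA2 did not overlap between the lines. It was 1.46 to 3.84 in the 12 HepG2 libraries, where GSTA1 was always the higher, and 0.307 to 1.12 in the 11 Caco-2 libraries, where GSTA1 was the higher in library 1 of the mono-cultured controls alone. In Caco-2 the libraries numbered 3 had the lowest ratios: it was 0.641 to 1.12 in the 4 libraries numbered 1, 0.499 to 0.999 in the 4 numbered 2, and 0.307 to 0.433 in the 3 numbered 3. The canonical GSTA1 transcript is identical to that of GSTA2 at 1159 of 1218 aligned bases (95.2%), and 258 of its 1169 stretches of 50 bases (22.1%) occur in GSTA2 too, so the division of reads between the genes is uncertain. Their values were therefore also summed with GSTA3 and GSTA5, and the summed difference between mono-cultured controls was 4.27 log2 units (SE 0.59, limma adjusted p = 3.79e-06). Over the 23 libraries, after subtracting the mean of each line, log2 values of GSTA1 and GSTA2 correlated with Pearson's r = 0.80, a description over libraries that share lines, numbers and reads.

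**Figure D4:**
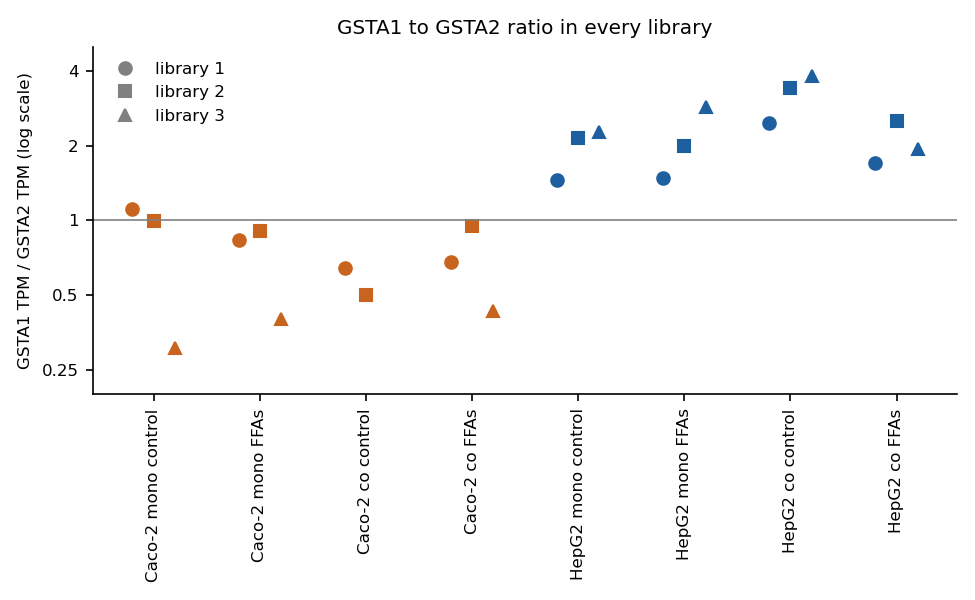
Ratio of GSTA1 to GSTA2 TPM on a log axis in each library, by group, with the marker shape giving the library number. All HepG2 libraries lie at 1.46 or above and all Caco-2 libraries at 1.12 or below, with the Caco-2 libraries numbered 3 lowest at 0.307 to 0.433.

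GSTA4 (ENSG00000170899; chromosome 6, 52977948-52995304, minus strand, 7 exons) encodes the alpha-class enzyme with high activity toward 4-hydroxynonenal, an aldehyde of lipid peroxidation. Caco-2 levels were 64.3, 63.9 and 70.0 TPM in mono-cultured controls, 58.9, 63.5 and 68.9 TPM in mono-culture with FFAs, 71.6 and 84.3 TPM in co-cultured controls, and 70.0, 90.6 and 83.3 TPM in co-culture with FFAs. In HepG2 it was at 52.9, 49.9991 and 43.7 TPM in mono-cultured controls, 54.1, 56.8 and 49.9885 TPM in mono-culture with FFAs, 48.6, 35.7 and 40.3 TPM in co-cultured controls, and 46.6, 42.6 and 39.3 TPM in co-culture with FFAs. The ranges of the lines did not overlap but were close, with the lowest Caco-2 library at 58.9 and the highest HepG2 library at 56.8 TPM. The difference between mono-cultured controls, 0.43 log2 units (SE 0.12, limma adjusted p = 0.00456), was the smallest of those called higher, and with only the libraries numbered 1 and 2 it was 0.31 (adjusted p = 0.101).

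GSTO1 (ENSG00000148834; chromosome 10, 104235356-104267459, plus strand, 6 exons) encodes the omega-class enzyme, which reduces dehydroascorbate and methylated arsenic. In Caco-2 it was at 333, 325 and 288 TPM in mono-cultured controls, 329.5, 302 and 238 TPM in mono-culture with FFAs, 265 and 240.5 TPM in co-cultured controls, and 277, 263 and 242 TPM in co-culture with FFAs. The HepG2 libraries held 437, 379 and 402 TPM in mono-cultured controls, 346, 367 and 349 TPM in mono-culture with FFAs, 438, 395 and 379 TPM in co-cultured controls, and 338, 389.9 and 333 TPM in co-culture with FFAs. The lines overlapped only slightly, and HepG2 was higher by 0.36 log2 units in mono-cultured controls (Caco-2 minus HepG2 -0.36, SE 0.11, limma adjusted p = 0.00599).

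GSTZ1 (ENSG00000100577; chromosome 14, 77320996-77331597, plus strand, 9 exons) encodes maleylacetoacetate isomerase, the zeta-class enzyme of tyrosine breakdown, and was the least abundant member in Caco-2. It was at 32.7, 26.5 and 24.0 TPM in mono-cultured Caco-2 controls, 25.6, 29.1 and 24.5 TPM in mono-culture with FFAs, 32.3 and 29.0 TPM in co-cultured controls, and 28.6, 31.9 and 28.5 TPM in co-culture with FFAs. In HepG2 the lowest, median and highest of the 12 libraries were 16.8, 21.3 and 26.1 TPM, so the lines overlapped. The difference between mono-cultured controls was 0.19 log2 units (SE 0.15, limma adjusted p = 0.257), was not called and changed sign under quantile normalization (-0.043).

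GSTK1 (ENSG00000197448; chromosome 7, 143244093-143270854, plus strand, 8 exons) encodes the kappa-class enzyme of mitochondria and peroxisomes. The Caco-2 libraries held 246, 232 and 205 TPM in mono-cultured controls, 228, 256 and 247 TPM in mono-culture with FFAs, 222 and 227 TPM in co-cultured controls, and 202, 284 and 219 TPM in co-culture with FFAs. HepG2 levels were 150.1, 146 and 104 TPM in mono-cultured controls, 119, 141 and 124 TPM in mono-culture with FFAs, 122, 109 and 84.5 TPM in co-cultured controls, and 110.1, 106 and 97.9 TPM in co-culture with FFAs. No HepG2 library reached the lowest Caco-2 library, and the difference between mono-cultured controls was 0.78 log2 units (SE 0.15, limma adjusted p = 0.00014).

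Among the membrane-bound enzymes, MGST1 (ENSG00000008394; chromosome 12, 16347142-16609259, plus strand, 4 exons) conjugates glutathione and reduces lipid hydroperoxides in the endoplasmic reticulum and mitochondria. Caco-2 levels were 410.3, 441 and 366 TPM in mono-cultured controls, 379, 386 and 310.4 TPM in mono-culture with FFAs, 326 and 291 TPM in co-cultured controls, and 336, 299 and 314 TPM in co-culture with FFAs. In HepG2 it was at 400.1, 379 and 360.3 TPM in mono-cultured controls, 399, 403 and 288 TPM in mono-culture with FFAs, 512, 457 and 479 TPM in co-cultured controls, and 484, 504 and 372 TPM in co-culture with FFAs. Mono-cultured controls did not differ beyond their spread (0.09 log2 units, SE 0.13, limma adjusted p = 0.56), and the sign turned under median-of-ratios scaling (-0.10).

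MGST2 (ENSG00000085871; chromosome 4, 139665768-139740745, plus strand, 5 exons) can make leukotriene C4 besides conjugating glutathione. In Caco-2 it was at 149, 153 and 108 TPM in mono-cultured controls, 154, 135 and 134 TPM in mono-culture with FFAs, 119 and 118 TPM in co-cultured controls, and 131, 108 and 123 TPM in co-culture with FFAs. The HepG2 libraries held 284, 253 and 199.6 TPM in mono-cultured controls, 199, 272 and 205 TPM in mono-culture with FFAs, 198, 195 and 146 TPM in co-cultured controls, and 167, 190.3 and 176 TPM in co-culture with FFAs. HepG2 was higher (Caco-2 minus HepG2 -0.84 log2 units in mono-cultured controls, SE 0.16, limma adjusted p = 0.000105), with a slight overlap of the lines.

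MGST3 (ENSG00000143198; chromosome 1, 165631213-165661796, plus strand, 6 exons) is a glutathione-dependent peroxidase of lipid hydroperoxides. The Caco-2 libraries held 397, 465 and 349 TPM in mono-cultured controls, 449, 391 and 302 TPM in mono-culture with FFAs, 399.7 and 352 TPM in co-cultured controls, and 407, 456 and 336 TPM in co-culture with FFAs. HepG2 levels were 79.8, 78.9 and 62.0 TPM in mono-cultured controls, 87.2, 87.9 and 60.4 TPM in mono-culture with FFAs, 61.1, 63.4 and 48.4 TPM in co-cultured controls, and 70.9, 61.5 and 49.5 TPM in co-culture with FFAs. Every Caco-2 library exceeded every HepG2 library, and mono-cultured controls differed by 2.44 log2 units (SE 0.18, limma adjusted p = 6.45e-10).

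The difference between the lines was also read in the other 3 conditions, which use other libraries. With FFAs in mono-culture 5 genes were called higher and 2 lower in Caco-2, near the background of 61.1% of all genes (39.3% higher and 21.8% lower), and GSTA4 was not called (0.24 log2 units, SE 0.12, limma adjusted p = 0.0887). In co-cultured controls 7 were higher and 3 lower, where 58.8% of all genes were called (39.0% higher and 19.8% lower). The same counts were found in co-culture with FFAs, where 61.0% of all genes were called (39.7% higher and 21.3% lower). MGST1 was then lower in Caco-2, at -0.65 log2 units (SE 0.15, limma adjusted p = 0.000845) in controls and -0.51 (SE 0.13, limma adjusted p = 0.0024) with FFAs. GSTZ1 was higher there, by 0.57 log2 units in both (limma adjusted p = 0.00585 and 0.00232), but without library 1 of the co-cultured Caco-2 controls its value in controls was 0.49 (adjusted p = 0.0597), and that call also ended under median-of-ratios scaling (0.31, adjusted p = 0.102) and quantile normalization (0.26, adjusted p = 0.151). The GSTZ1 call in co-culture with FFAs ended under quantile normalization as well (0.28, adjusted p = 0.0815). With FFAs in mono-culture the GSTO1 call ended without library 3 of Caco-2 (-0.16 log2 units, adjusted p = 0.167) or library 2 of HepG2 (-0.27, adjusted p = 0.0627), and without the latter GSTZ1 was called (0.42, adjusted p = 0.0304).

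Co-culture was compared with mono-culture to ask whether the linked line changed these transcripts. No member was called within either line, averaged over treatments, in limma without the library number as a block. With that block MGST1, MGST2 and MGST3 were called in HepG2 (limma adjusted p = 0.0381, 0.0447 and 0.0202), among 492 called of the 14255 genes tested. The values below are from the fit without it. In HepG2 8 of the 10 genes had lower values in co-culture, with a median of -0.30 log2 units against -0.02 over all genes, and 6 had an unadjusted p under 0.05 against 12.5% of the 14255 genes tested. In Caco-2 6 of the 10 had lower values and 4 had an unadjusted p under 0.05, against 10.5% of the 15081 genes tested. The called share over all genes was 0.0561% in HepG2 (0.0281% in each direction) and 0% in Caco-2. By treatment, 2 members had an unadjusted p under 0.05 in Caco-2 controls (5.43% of all genes) and 2 with FFAs (6.09%), and in HepG2 2 in controls (7.53%) and 3 with FFAs (5.63%). None was called, against 0.0199% of all genes, each of them higher, in Caco-2 controls and 0% in the other 3.

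**Figure D5:**
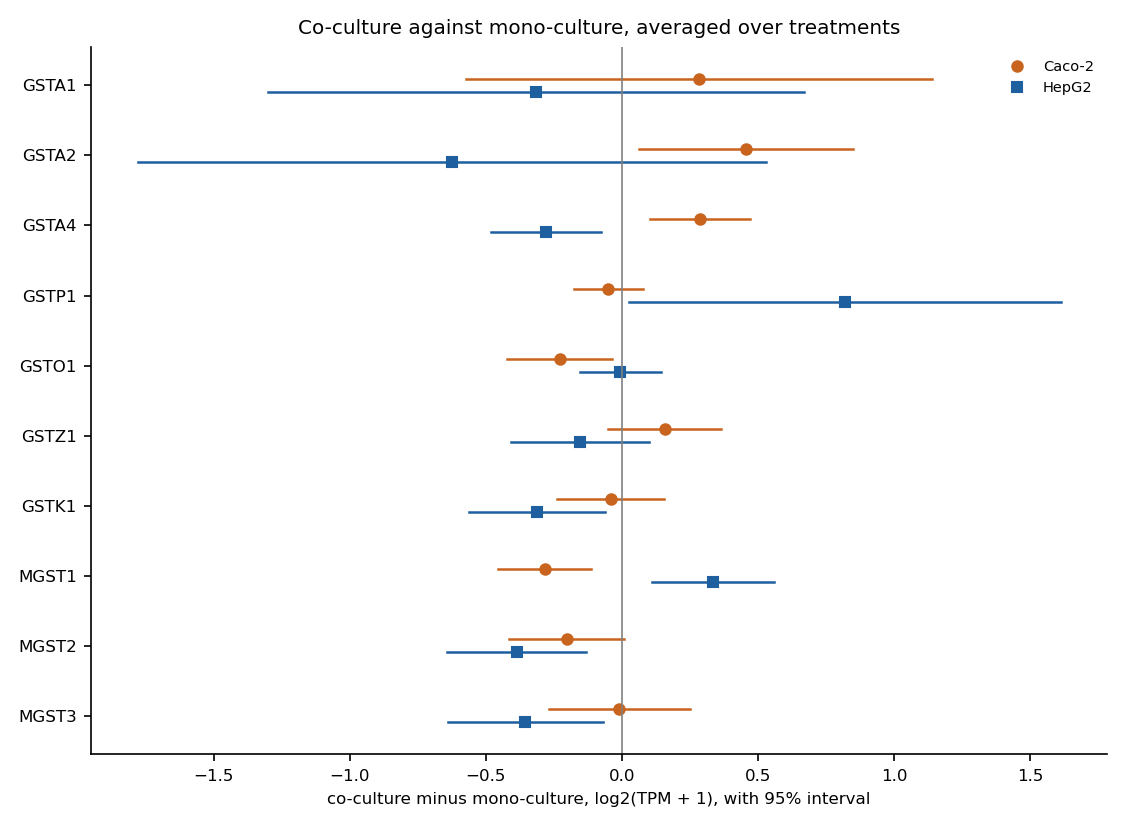
Co-culture minus mono-culture difference in log2(TPM + 1), averaged over treatments, for each gene in Caco-2 (orange circles) and HepG2 (blue squares), with the 95% interval of the limma fit. The intervals of the lines lie on opposite sides of 0 for MGST1, at -0.28 in Caco-2 and 0.33 in HepG2, and for GSTA4, at 0.29 and -0.28.

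MGST1 and GSTA4 had opposite signs in the lines. MGST1 was lower in co-cultured Caco-2 (-0.28 log2 units, SE 0.08, limma adjusted p = 0.308) and higher in co-cultured HepG2 (0.33, SE 0.10, limma adjusted p = 0.225). The difference between these effects was -0.62 log2 units (SE 0.13) and passed the threshold in the fit of all 23 libraries (limma adjusted p = 0.0435). GSTA4 was higher in co-cultured Caco-2 (0.29, SE 0.08, limma adjusted p = 0.316) and lower in co-cultured HepG2 (-0.28, SE 0.09, limma adjusted p = 0.267), a difference of 0.56 log2 units (SE 0.13, limma adjusted p = 0.0466). Among all genes 0.533% were called in this comparison. Both calls were near the threshold. With the 23 libraries left out one at a time, MGST1 lost its call in 16 cases (-0.66 to -0.54, adjusted p up to 0.126) and GSTA4 in 17 (0.51 to 0.59, adjusted p up to 0.137), and neither changed sign. In Caco-2 alone, the MGST1 effect lay between -0.33 and -0.24 and that of GSTA4 between 0.23 and 0.34 with each library left out, the 2 libraries with high SPP1 and TF included.

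In terms of libraries, all 6 mono-cultured HepG2 libraries exceeded all 6 co-cultured ones for MGST2, which held in this direction for 0.758% of all genes and for no other member. The margin was narrow, with the lowest mono-cultured library at 198.6 TPM and the highest co-cultured one at 197.8 TPM. MGST2 differed by -0.39 log2 units (SE 0.12, limma adjusted p = 0.216). MGST3 (-0.36, SE 0.13), GSTK1 (-0.31, SE 0.11) and GSTA2 (-0.62, SE 0.53) also had lower means in co-cultured HepG2, with limma adjusted p of 0.296, 0.293 and 0.676. GSTO1 stood at -0.01 (SE 0.07) in HepG2. In Caco-2 the differences of other members included GSTA2 at 0.45 (SE 0.18, limma adjusted p = 0.427) and GSTO1 at -0.23 (SE 0.09, limma adjusted p = 0.414), and GSTP1 stood at -0.05 (SE 0.06). The interval of the GSTA1 difference ran from -0.57 to 1.14 log2 units in Caco-2 and from -1.30 to 0.67 in HepG2.

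FFAs were compared with controls in each culture. No member was called in any FFAs comparison or in the interaction of FFAs and culture, in limma, and over all genes 0.0199%, each of them lower, were called in co-cultured Caco-2 and 0% in the other 3 comparisons of FFAs with controls. At an unadjusted p under 0.05 there were 0 members in mono-cultured Caco-2 (2.61% of all genes), 0 in co-cultured Caco-2 (2.83%), 0 in mono-cultured HepG2 (2.24%) and 1, GSTP1, in co-cultured HepG2 (1.84%). For the interaction there were 0 in Caco-2 (1.94%) and 0 in HepG2 (1.16%). Averaged over cultures, 0 of 10 in Caco-2 and 2 of 10 in HepG2 had an unadjusted p under 0.05, against 3.99% and 3.49% of all genes. Those 2 were GSTP1, at 0.92 log2 units (SE 0.36, limma adjusted p = 1), which lay between 0.69 and 1.199 with each HepG2 library left out, and GSTO1, at -0.19 (SE 0.07, limma adjusted p = 1). For GSTP1 each such fit kept library 1 or 3 of the co-culture with FFAs, at 19.6 and 11.0003 TPM, or both. In mono-culture its libraries overlapped, with means of 3.20 ± 2.07 TPM with FFAs and 2.47 ± 1.51 TPM in controls (SD, n = 3 each). GSTO1 was below both control means in both FFAs groups of HepG2, with means of 354 ± 11.3 and 354 ± 31.5 TPM against 406 ± 29.1 and 404 ± 30.6 TPM (SD, n = 3 each). In Caco-2 the averaged differences of the 10 genes lay between -0.07 and 0.08 log2 units, and the interval of MGST1 ran from -0.24 to 0.10.

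The criteria of the study, an unadjusted p under 0.05 in a one-way analysis of variance over the 4 groups of a line and a difference of at least 0.26 log2 units between 2 group means, were met by 1 of the 10 genes in Caco-2 and by 0 in HepG2. That gene was MGST1, with a largest difference of 0.39 log2 units, between mono-cultured and co-cultured controls (unadjusted p = 0.0375, and 0.901 after Benjamini-Hochberg adjustment over all genes). These criteria were met by 3.08% of the genes in Caco-2 and 3.56% in HepG2.

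Around the family, 0 genes of any related list were called within a line in limma without the library number as a block. In those fits at most 0.0561% of all genes were called. The lists were not read with the block. The other glutathione transferase genes were counted between mono-cultured controls of the lines. Of the 14 listed, 8 were tested: 3 were higher in Caco-2 and 3 lower. Over all genes tested there, 62.4% were called, 39.0% higher and 23.4% lower in Caco-2. GSTM3, a mu-class gene, had its median at 69.0 TPM in Caco-2 and 168 TPM in HepG2 (-1.23 log2 units in mono-cultured controls, SE 0.19, limma adjusted p = 1.69e-05). GSTM2 had its median at 0.330 and 10.7 TPM, and the theta-class gene GSTT2B at 12.2 and 1.93 TPM. Among those not tested, GSTM1, deleted in many people, was at or under 0.200 TPM in all 23 libraries, and GSTA3, GSTA5 and HPGDS were at or under 0.400 TPM. Of the 3 other genes of the MGST superfamily, PTGES, a prostaglandin E synthase, was called higher in Caco-2 (2.22 log2 units, SE 0.16, limma adjusted p = 5.34e-10).

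Of the 31 identifiers tested for glutathione synthesis, recycling, use and breakdown, 9 were higher and 14 lower in Caco-2. For this list and those below, the share over all genes was again 62.4% (39.0% higher and 23.4% lower). The peroxidase gene GPX2 was lower (-5.43 log2 units, SE 0.37, limma adjusted p = 1.38e-10), as was ANPEP (-5.25), which takes part in the breakdown of glutathione outside the cell. GGT1, which acts there too, was listed under 2 identifiers, of which ENSG00000100031 was lower (-2.63) and ENSG00000286070 was not called (-0.11, SE 0.11, limma adjusted p = 0.401). The cysteine and glutamate carrier SLC1A1 was higher (5.26, SE 0.17, limma adjusted p = 1.46e-15). Among 6 genes for the export of conjugates 2 were higher and 3 lower, ABCC4 by 2.03 and ABCC1 by -1.38 log2 units. All 4 genes of tyrosine breakdown around GSTZ1 were lower in Caco-2, led by HPD (-6.20, SE 0.40, limma adjusted p = 6.15e-11), while GSTZ1 itself was not called. Of 12 regulators 2 were higher and 3 lower. CDX2 was higher (6.01, SE 0.22, limma adjusted p = 1.87e-14). NR1I2, the xenobiotic receptor PXR, was lower (-3.58), and NFE2L2, which drives the antioxidant response and is named here after its value was seen, was not called (-0.44, SE 0.24).

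Genes with the pattern most like each member were found by Pearson's r of log2(TPM + 1) over the 23 libraries after subtracting the mean of each line, among 16495 genes, and up to 3 are named for each where r was at least 0.85. For GSTP1 they were LDHB (0.93), CDH17 (0.91) and CLDN7 (0.89), whose HepG2 values are plotted with those of GSTP1. GSTA2 was most like AKR1D1 (0.92), PEG10 (0.90) and TJP3 (0.90), and GSTA1 most like CAT (0.89), CLIC3 (0.88) and LINC02015 (0.88). GSTK1 was most like PHYH (0.93), which oxidises branched fatty acids in peroxisomes and then TTR (0.91). MGST3 was most like SMIM24 (0.91), AGPAT1 (0.89) and ERP27 (0.88), MGST1 most like ENO1 (0.89) and NCLN (0.86), and MGST2 most like SPR (0.86). No gene reached 0.85 with GSTA4, GSTO1 or GSTZ1. The libraries share lines and numbers, their depth is unknown, and the values are descriptions without a test.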

How the data were processed

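Per the labels and the study's methods, RNA from cells in the chip was made into SMART-Seq v4 libraries. Reads from ribosomal, transfer and mitochondrial RNA were removed with Bowtie2 (2.1.0), the rest were aligned with STAR (2.7.1a) to GRCh38 with Ensembl 98, and the authors deposited TPM per gene from RSEM (1.3.0), 1 table per library, which holds no read counts, so depth is unknown. Every value above 100 TPM equalled a log2(TPM + 1) of 4 decimals within 0.001 TPM. The labels give 0.5% serum in the treatment medium, whereas the study's methods describe starvation and then a serum-free medium with albumin.

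From these tables, log2(TPM + 1) was computed, genes whose mean stayed under 1 TPM in every group were dropped, and the rest were tested with limma (3.58.1, trend) in R (4.3.3), with a fit of 4 groups per line and a fit of all 8 groups across lines, and Benjamini-Hochberg adjustment. Coordinates and exons come from GENCODE 44 on GRCh38. RefSeq promoters were found for 9 of the 10 genes, MGST2 being the exception. The fits were tested on simulated data. Members and lists were chosen with earlier results of these data known. All members are named, and from each list up to 6 genes with the widest difference between mono-cultured controls of the lines, with exceptions marked. Same-numbered libraries deviated together at r of -0.09 to 0.31 in Caco-2 and 0.03 to 0.60 in HepG2, so not every pair exceeded 0.1 and the numbers were not taken as pairs. Alternatives were another pseudocount, no filter, 2 other scalings, no trend, a replicate block, each library left out, and, chosen after seeing the data, libraries 1 and 2 only. Some genes that the naming rule picked are not reported here.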

Additional observations from a re-analysis of the deposited data

Results flagged for a closer look

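The effect of co-culture, averaged over treatments, differed between the lines by limma's test of the difference itself for 2 of the 10 genes. For MGST1 the Caco-2 effect minus the HepG2 effect was -0.62 log2 units (SE 0.13, limma adjusted p = 0.0435), with co-cultured Caco-2 lower and co-cultured HepG2 higher than their mono-cultures. Over 30 alternatives the difference lay between -0.69 and -0.54, with adjusted p from 0.00543 to 0.126 and under 0.05 in 12. Leaving out 1 library kept the call only for libraries 3 of the Caco-2 mono-cultured controls and mono-culture with FFAs, library 1 of the Caco-2 co-culture with FFAs, library 3 of the HepG2 mono-cultured controls, libraries 1 and 2 of the HepG2 mono-culture with FFAs and library 3 of the HepG2 co-culture with FFAs. Leaving out any of the other 16 ended it, at -0.66 to -0.54 and adjusted p of 0.0517 to 0.126.

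For GSTA4 the difference was 0.56 log2 units (SE 0.13, limma adjusted p = 0.0466), with co-cultured Caco-2 higher and co-cultured HepG2 lower. Over 30 alternatives it lay between 0.51 and 0.63, with adjusted p from 0.0277 to 0.137 and under 0.05 in 9. Leaving out 1 library kept the call only for library 3 of the Caco-2 mono-culture with FFAs, library 1 of the Caco-2 co-cultured controls and of the co-culture with FFAs, library 3 of the HepG2 mono-cultured controls, and library 1 of the HepG2 co-cultured controls and of the co-culture with FFAs. Any of the other 17 ended it, at 0.51 to 0.59 and adjusted p of 0.0517 to 0.137. Of the 2 Caco-2 libraries with high SPP1 and TF, leaving out either kept the GSTA4 call, whereas for MGST1 the call ended without library 1 of the co-cultured controls and stayed without library 1 of the co-culture with FFAs.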

How the results depend on the processing

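The number of members called between mono-cultured controls of the lines was 7 or 8 under every alternative run. No member was called within a line except with the replicate number as a block. With it 3 were called for co-culture in HepG2 (MGST1, limma adjusted p = 0.0381, MGST2, 0.0447, and MGST3, 0.0202). Of the 14255 genes tested, 492 were called with the block against 8 without it. Same-numbered libraries deviated together at r above 0.1 in 7 of 15 pairs in Caco-2 and in 15 of 18 in HepG2. In HepG2 the median r was 0.30 for the same number and -0.23 for different numbers. The labels do not say what a number stands for, so the block is given as an alternative only. With the block the study criteria were met by 3 members in Caco-2 (MGST1, GSTO1 and GSTA4) and 6 in HepG2 (MGST1, MGST2, MGST3, GSTA4, GSTA1 and GSTA2). Over all genes they were then met by 1374 of 31100 in Caco-2 and 1661 of 29942 in HepG2. With Benjamini-Hochberg adjustment 0 members met them in Caco-2. The 2 members called for the difference between the lines in the co-culture effect became 1 with a pseudocount of 0.1, 0 without the filter, 0 in limma without trend, 1 with libraries 1 and 2 only, and 0 to 2 with each library left out. The cause was not tested.

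Values near 0 that were not called changed sign. GSTZ1 between the lines became -0.043 with quantile normalization and MGST1 -0.10 with median-of-ratios scaling. For co-culture in Caco-2, with each library left out, GSTA1 lay between -0.039 and 0.502, below 0 without library 3 of the mono-cultured controls, GSTK1 between -0.113 and 0.0090, above 0 without library 1 of the co-culture with FFAs, and MGST3 between -0.088 and 0.055 (0.017 with quantile normalization). For co-culture in HepG2, GSTO1 lay between -0.042 and 0.021 with each library left out and was 0.022 with median-of-ratios scaling and 0.029 with libraries 1 and 2 only. Without counts, the depth behind low values such as GSTP1 in HepG2 is unknown.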
